A study of Mus musculus with 10 samples.

Results

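Preleptotene spermatocytes (pL) were followed here in the testis scRNA-seq and scATAC-seq of this study. They are the cells that the deposited scRNA-seq table names preLep, 1761 of 45250 cells. The same name was carried over to 1721 of the 31569 scATAC-seq cells that had a scRNA-seq name, out of 343866 scATAC-seq cells in all. Juvenile testes came from wild-type mice at 11, 17 and 25 days postpartum (dpp), and adult testes, at 8 weeks, from Cre/+ and from Nfya-CKO animals, all on a C57BL/6J background. Cre/+ mice carry Stra8-Cre, in which Cre and a fluorescent protein are made from the Stra8 gene, and Nfya-CKO mice carry Stra8-Cre together with Nfya fl/fl, in which Cre removes exons 5 and 6 of Nfya in germ cells that express Stra8. Both assays were run on each nucleus, every condition has 1 library of either kind, and the sources used here do not say how many animals were pooled. Nothing below therefore has a replicate check, cells are not replicates, and no p-value is given.

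A preleptotene spermatocyte is a germ cell that has left the mitotic divisions of spermatogonia (SpG) and carries out the last round of DNA replication before meiosis. Retinoic acid from the surrounding somatic cells switches on Stra8, whose protein acts with MEIOSIN to turn on meiotic genes, while MEIOC, YTHDC2 and RBM46 act on RNA to let the cell leave the mitotic program. In leptotene and zygotene, which follow, SPO11 cuts DNA at sites marked by PRDM9, strand exchange proteins pair the broken ends with the homologous chromosome, and the synaptonemal complex forms.

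The cell name is the authors' name for 1 scRNA-seq cluster, number 12, which holds no cell of another population. The gene matrices give 1 value per population, pooled over all libraries, so they hold no value per library. For RNA this is an equal mean over cells, as the mitochondrial share shows, and for scATAC-seq the weight of each cell was not checked. RNA levels are UMIs (counted molecules) per 10000 UMIs of a cell. Accessibility levels are scATAC-seq signal per gene, scaled to 1000000 per population, and the sources used here do not say which region this matrix counts for a gene. The study's methods define promoter accessibility as mean coverage near the start site in tracks scaled by depth, without saying that this matrix holds it. pL was compared with its neighbours in development, undifferentiated SpG (undiff. SpG), differentiating SpG (diff. SpG) and early leptotene, leptotene and zygotene spermatocytes (eL/L/Z), and with the later L/Z/eP (to early pachytene), mP/lP (mid and late pachytene) and diplotene (D) spermatocytes, round and elongating spermatids (RS, ES) and Sertoli cells. RNA differences between cell populations that were clustered on the same RNA are a description and not a test, while scATAC-seq played no part in naming these cells.

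The targeted gene could not be checked in pL, since the library labelled Nfya-CKO held no pL cell. In its SpG, Nfya had 1.11 UMIs per 10000 against 0.456 in control undiff. SpG, and whether these UMIs lie in the deleted exons is not known, so the value checks nothing.

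Some properties of the libraries bear on every value that follows. Of 39716 scRNA-seq barcodes, 5037 occurred in more than 1 library, against 982 of 342825 in scATAC-seq. Among pL cells 335 (19.0%) had a barcode seen in another library, and in 333 of these the pL cell was the deepest copy, with a median of 15318 UMIs for shared and 7136.5 for other pL cells. Of the 468 pairs that these barcodes formed, 393 were with an eL/L/Z cell, whose UMIs had a median of 4.24% of those of the pL cell. In turn 1246 of 5705 eL/L/Z cells (21.8%) and 145 of 927 diff. SpG cells (15.6%) were not the deepest copy of their barcode, against 2 of 1761 pL cells. The matrices could not be recomputed without these cells, and the part of shared barcodes in the differences between pL and eL/L/Z was not tested. The populations also came from different mice. The 11 and 17 dpp libraries gave 97.5% of pL, 70.3% of undiff. SpG and 56.0% of eL/L/Z cells, but 3.67% of diff. SpG cells, of which 84.5% came from the adult Cre/+ library. Age and cell type cannot be told apart in that comparison.

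pL cells were abundant in the 2 youngest testes and rare afterwards. They numbered 1045 of 6273 cells at 11 dpp and 672 of 3746 at 17 dpp, but 38 of 18039 at 25 dpp and 6 of 11991 in Cre/+. The library labelled Nfya-CKO held none among 5152 cells, which allows a share of up to 0.0582%. With the deepest cell of each barcode alone, that library kept 2494 cells, and the limit rose to 0.120%. Of germ cells alone, pL made up 33.2% at 11 dpp (exact Clopper-Pearson 95% interval 31.6 to 34.9%) and 20.9% at 17 dpp (19.5 to 22.4%). The intervals of these germ cell shares do not overlap, whereas those of the shares of all cells do, at 16.7% (15.7 to 17.6%) and 17.9% (16.7 to 19.2%). The latter overlap is lost, with 17 dpp higher, among cells with at least 1000 genes (18.7 to 20.9% and 24.3 to 27.7%) and with the deepest cell of each barcode alone (16.6 to 18.6% and 19.0 to 21.7%). At 25 dpp the share of germ cells was 0.217% (0.154 to 0.298%) and in Cre/+ 0.0517% (0.0190 to 0.112%). In the library labelled Nfya-CKO it was 0 of 500, which allows up to 0.600% of germ cells, a limit above the share measured at 25 dpp and in Cre/+. A lower share in that library than in its adult control, with 6 cells, was therefore not detectable at this depth. All these intervals and limits cover counting error only.

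**Figure D1:**
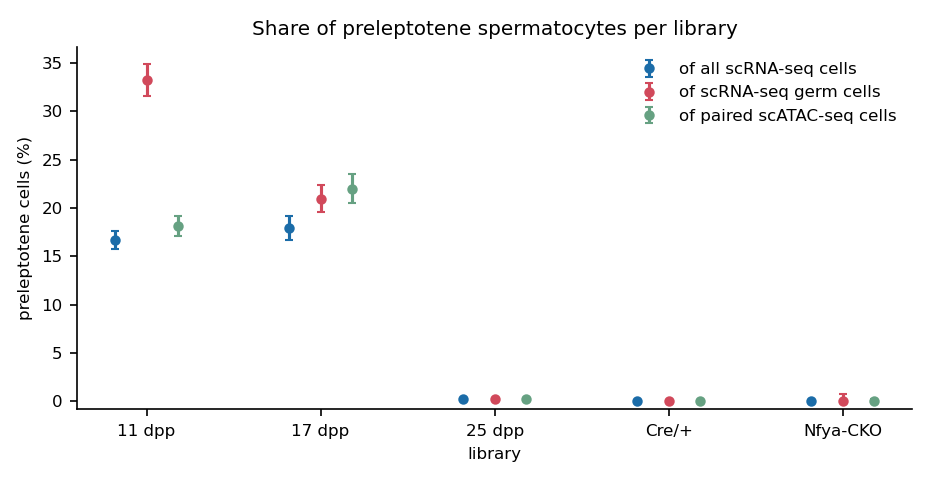
Share of preleptotene spermatocytes (percent, y axis) in each library (x axis), of all scRNA-seq cells, of scRNA-seq germ cells and of scATAC-seq cells with a scRNA-seq name. Points are single libraries with exact 95% binomial intervals, and the 25 dpp, Cre/+ and Nfya-CKO points all lie below 0.3% while the 11 dpp germ cell share is 33.2%.

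The scATAC-seq names are those of the scRNA-seq carried over to the same nuclei, so their shares are no independent count. Among cells with a scRNA-seq name, pL made up 18.1% in the 11 dpp library and 22.0% in the 17 dpp library. The share was 0.248% at 25 dpp and 0.0841% in Cre/+ mice. None was found among 1699 such cells of the library labelled Nfya-CKO, which allows up to 0.177% (0.217% by the exact interval). Of the 1761 pL cells 40 had no scATAC-seq entry, and these had fewer UMIs than the rest (median 5548.5 against 8191).

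Over all libraries, pL cells were deeper than eL/L/Z and diff. SpG cells and shallower than undiff. SpG cells, although deeper than these at 25 dpp (5408 against 5019 UMIs) and in Cre/+ (11170.5 against 10026). Their median was 8161 UMIs and 2800 genes per cell (lowest 562 UMIs, highest 40365), with 7637 UMIs at 11 dpp, 9473 at 17 dpp and 5408 at 25 dpp. The eL/L/Z cells that follow them had medians of 1522, 2570 and 2493 UMIs in these libraries. Over all libraries the median was 9290 UMIs in undiff. SpG and 6188 in diff. SpG. In all, pL rests on 16001344 UMIs and 49653809 fragments. Only 15 pL cells had under 1000 genes and 55 had 2% or more mitochondrial UMIs.

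The 4 genes given as markers did not all single out pL. Stra8 (chr6:34920163-34939344), the retinoic acid target that drives meiotic entry, did so most clearly, with 4.86 UMIs per 10000 in pL against 2.05 in undiff. SpG, 2.59 in diff. SpG, 2.67 in eL/L/Z and 0.964 in L/Z/eP. Kit (chr5:75574987-75656722), the stem cell factor receptor of differentiating SpG, was also highest in pL at 2.09, ahead of diff. SpG at 1.56 and eL/L/Z at 0.756. Cenpa (chr5:30666877-30674837), the histone H3 variant of centromeres, had 1.04 in undiff. SpG, 1.17 in diff. SpG, 1.31 in pL and 0.637 in eL/L/Z. Prdm9 (chr17:15543072-15564374), the histone methyltransferase that marks recombination sites, was not highest in pL: it measured 0.122, 0.618 and 0.974 from undiff. SpG to pL, 1.16 in eL/L/Z and 1.22 in L/Z/eP. Coordinates are those of RefSeq for GRCm38.p6, the assembly behind mm10. The accessibility of these genes in pL was 68.7 for Stra8, 47.1 for Kit, 32.2 for Cenpa and 56.5 for Prdm9, each the highest of the 10 populations before the correction given next.

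**Figure D2:**
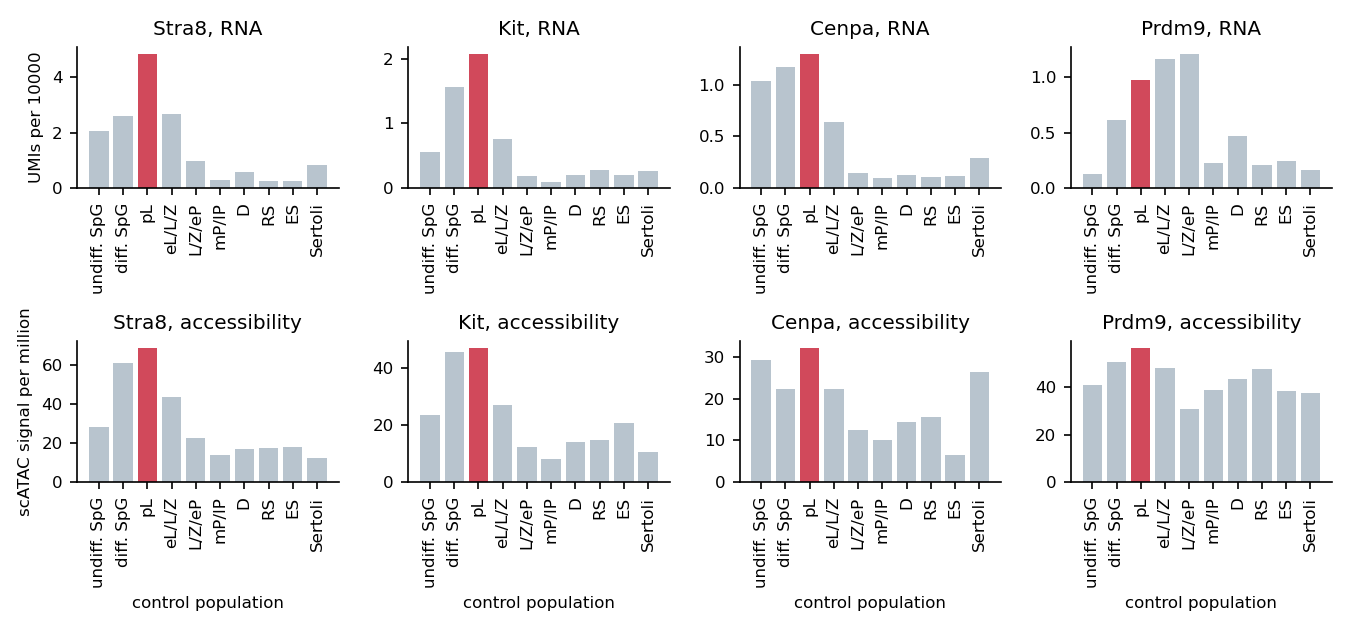
RNA (top, UMIs per 10000) and accessibility (bottom, scATAC-seq signal, scaled to 1000000 per population) of Stra8, Kit, Cenpa and Prdm9 in 10 control populations, with pL in red. Bars are the authors' pooled means without error. Stra8, Kit and Cenpa RNA peak in pL, while Prdm9 RNA is highest in L/Z/eP at 1.22.

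The level of accessibility needs a correction before it is read. Mitochondrial genes took 31.2% of the scATAC-seq signal in pL, the lowest of the 10 populations, against 40.6% in undiff. SpG, 35.0% in diff. SpG and 45.4% in eL/L/Z, so that nuclear genes as a whole appear higher in pL. The median gene was 0.16 higher on the log2 scale than in undiff. SpG, 0.12 higher than in diff. SpG and 0.35 higher than in eL/L/Z. With nuclear genes scaled alone these shifts were -0.06, 0.03 and 0.03. On that scaling Stra8 was still highest in pL, while pL came 2nd for Kit, 3rd for Cenpa and 5th for Prdm9. Differences in accessibility between pL and its neighbours are therefore given below relative to the median gene. On that scale Stra8 stood 1.09 above undiff. SpG, 0.05 above diff. SpG and 0.31 above eL/L/Z, and Prdm9 0.29 above undiff. SpG but -0.11 against eL/L/Z.

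The promoters of 5 genes that the results below turn on are printed to show the sequence near their start sites. They were chosen after the motif counts had been seen, and each is a RefSeq window of 250 bases before to 50 bases after a start site in GRCm38.p6, 5′ to 3′ on the strand of the gene. Capitals mark CCAAT or its reverse ATTGG, the letters that NF-Y binds, CNCCTCAG or CTGAGGNG, the letters found at STRA8-bound promoters, and TTTGGCGC or TTTCGCGC and their reverses GCGCCAAA and GCGCGAAA, letters bound by E2F factors. Stra8 (chr6:34920698-34920997, + strand), Meioc (chr11:102665335-102665634, + strand), Prdm9 (chr17:15564305-15564604, - strand), Mcm5 (chr8:75109259-75109558, + strand) and Top2a (chr11:99024140-99024439, - strand) read as follows.
Stra8: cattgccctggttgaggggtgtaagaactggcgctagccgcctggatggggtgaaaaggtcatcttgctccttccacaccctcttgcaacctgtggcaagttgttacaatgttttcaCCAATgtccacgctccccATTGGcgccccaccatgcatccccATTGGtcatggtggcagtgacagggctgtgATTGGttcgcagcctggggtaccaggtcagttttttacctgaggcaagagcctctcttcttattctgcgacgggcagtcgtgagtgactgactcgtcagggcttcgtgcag
Meioc: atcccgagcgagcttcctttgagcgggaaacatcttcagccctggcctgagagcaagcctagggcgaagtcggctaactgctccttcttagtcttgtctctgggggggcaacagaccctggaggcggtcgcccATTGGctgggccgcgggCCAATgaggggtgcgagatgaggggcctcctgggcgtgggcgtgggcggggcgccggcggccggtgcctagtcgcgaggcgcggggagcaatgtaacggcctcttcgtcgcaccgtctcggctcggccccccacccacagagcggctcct
Prdm9: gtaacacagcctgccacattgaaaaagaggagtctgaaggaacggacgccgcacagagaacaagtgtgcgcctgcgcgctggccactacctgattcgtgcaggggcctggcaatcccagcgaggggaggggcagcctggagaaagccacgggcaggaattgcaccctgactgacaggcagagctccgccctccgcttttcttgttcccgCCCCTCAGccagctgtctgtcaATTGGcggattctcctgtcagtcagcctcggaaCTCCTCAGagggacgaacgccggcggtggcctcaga
Mcm5: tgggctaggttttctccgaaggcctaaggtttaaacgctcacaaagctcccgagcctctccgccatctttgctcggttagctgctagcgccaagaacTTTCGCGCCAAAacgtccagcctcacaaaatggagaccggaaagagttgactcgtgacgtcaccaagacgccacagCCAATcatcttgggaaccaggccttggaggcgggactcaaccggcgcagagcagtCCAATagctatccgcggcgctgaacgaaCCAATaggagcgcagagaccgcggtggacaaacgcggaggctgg
Top2a: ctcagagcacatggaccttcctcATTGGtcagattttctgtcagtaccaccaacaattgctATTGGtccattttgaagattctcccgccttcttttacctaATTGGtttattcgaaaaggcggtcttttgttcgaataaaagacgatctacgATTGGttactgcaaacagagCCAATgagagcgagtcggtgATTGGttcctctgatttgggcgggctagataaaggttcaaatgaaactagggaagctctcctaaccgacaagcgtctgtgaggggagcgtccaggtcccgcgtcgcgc
Stra8 held CCAAT 4 times, at -133, -115, -91 and -61 from this start site, and Meioc held it at -117 and -100. Prdm9 held CNCCTCAG at -41 and 14 and CCAAT at -19, and its other RefSeq window held neither. Mcm5 held CCAAT 3 times, and TTTCGCGC and the reverse of TTTGGCGC overlapped there in 1 run that begins at -153. Top2a held CCAAT 6 times. Over all 27025 RefSeq genes with a window, 41.1% held CCAAT, 9.12% CNCCTCAG, 0.585% TTTGGCGC and 0.374% TTTCGCGC on either strand. A match is a run of letters and says nothing of binding, and where motifs overlap, each match was counted.

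By RNA and by accessibility, eL/L/Z was the population closest to pL. Of 12986 genes tested against eL/L/Z 5.87% were at least 2-fold apart, against 10.5% for undiff. SpG, 13.6% for diff. SpG, 26.9% for L/Z/eP and 31.4% for Sertoli cells. In accessibility with nuclear genes scaled alone, 3.76% of genes were at least 1.5-fold apart from eL/L/Z, 9.98% from diff. SpG and 19.9% from undiff. SpG. By the median absolute log2 difference in RNA, diff. SpG (0.30) was closer to pL than undiff. SpG (0.36). Of 14912 genes with a mean of at least 0.05 over the 10 control populations, 2204 (14.8%) were highest in pL by RNA. In accessibility 5437 of 18219 genes (29.8%) were, or 1264 of 21829 (5.79%) with nuclear genes scaled alone. Most of the 2204 genes led by little, with a median of 1.11-fold over the next population (ratio of value + 0.1), and 46 (0.308%) led by 1.5-fold or more. The next population was diff. SpG for 687 of these genes, eL/L/Z for 653 and undiff. SpG for 542.

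The genes that led by most were a mixed group. Ulk3, a serine/threonine kinase, had 1.35 UMIs per 10000 in pL against 0.590 in undiff. SpG, 0.300 in diff. SpG and 0.461 in eL/L/Z, a lead of 2.10-fold over the next population. The antisense transcript Zfp286os had 2.57 against 0.117, 0.767 and 1.20, and led by 2.06-fold. Whether the authors' counting kept the strands apart is not given in the sources used here, so reads of Zfp286os and its partner gene may be mixed. Hmgn2, which binds nucleosomes, led by 1.89-fold with 3.43, and Ptma, the acidic nuclear protein prothymosin alpha, by 1.87-fold with 31.8 against 14.5, 3.08 and 11.3 in these neighbours and 17.0 in Sertoli cells. Both have near-identical copies elsewhere in the genome, so their counts are uncertain. Esx1, an X-linked homeobox gene, had 4.62 in pL against 0.380 in undiff. SpG and led by 1.80-fold. Stra8 itself was sixth at 1.79-fold. Mospd3 (1.77-fold), the netrin receptor gene Unc5b (1.75-fold), the amino acid transporter gene Slc7a8 (1.72-fold) and the zinc finger gene Zfp39 (1.71-fold) followed. The lead is over the 10 control populations, and Slc7a8 had more (1.81 against 0.907 in pL) in a somatic population that came mostly from the library labelled Nfya-CKO. With that population, the cells of unknown type and the SpG of that library added, 1703 genes were highest in pL and 39 led by 1.5-fold or more.

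Genes 2-fold apart in RNA tended to differ the same way in accessibility, while genes highest in pL did so against undiff. SpG alone. The 2204 genes highest in pL by RNA were above the median gene in accessibility over undiff. SpG in 80.7% of 2081 cases, against 59.6% for all genes tested by RNA. Over diff. SpG they were above it in 39.3% (all genes 41.8%) and over eL/L/Z in 32.1% (all genes 41.3%). The share was thus above that of all genes against undiff. SpG and below it against both other neighbours. Genes at least 2-fold lower in pL RNA than in undiff. SpG were below the median gene as a group, by a median of -0.42, and those at least 2-fold higher were above it, by 0.30. Against eL/L/Z, 81.0% of the 84 genes higher in pL RNA were above the median gene, 27.1% of the lower genes and 40.6% of the rest. Against diff. SpG these shares were 55.3%, 24.1% and 43.1%. Of the 84 genes higher than in eL/L/Z, 18 were protocadherin gamma genes, which share exons and count as 1 locus. All 18 lay above the median gene, and the share without them was not computed. Genes are not independent of each other, and both readouts come from the same cells.

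RNA of DNA replication genes was mostly a little higher in pL than in each neighbour. Of 44 genes for licensing origins and running the replication fork, 27 were highest in pL, or 61.4% against 14.8% of all genes. None was 2-fold lower than in a neighbour, and few were 2-fold higher: 2 against undiff. SpG (2.82% of all genes), 1 against diff. SpG (1.42%) and 1 against eL/L/Z (0.693%). The difference was small but shared, with 37, 33 and 40 of the 44 genes above 0 and median log2 differences of 0.41, 0.27 and 0.31, where the median of all genes was -0.02, 0.01 and -0.01. Mcm5, a subunit of the MCM helicase, had 3.14 UMIs per 10000 in pL against 1.84, 1.85 and 2.35 in undiff. SpG, diff. SpG and eL/L/Z. Fen1, the flap endonuclease that trims Okazaki fragments, had 2.38 in pL and 1.11 in eL/L/Z, and led the next population by 1.55-fold. Pcna, the sliding clamp, had 1.24 against 0.569, 0.457 and 0.850, and Gins2, a helicase subunit, 0.507 against 0.181, 0.377 and 0.294. Mcm2 went with the SpG instead, with 1.38 in diff. SpG and 1.01 in pL. Pola1, the X-linked catalytic subunit of DNA polymerase alpha, had 0.391 in pL against 0.746 in undiff. SpG and 0.654 in eL/L/Z. In accessibility 42 of the 44 genes lay above the median gene over undiff. SpG, 19 over diff. SpG and 23 over eL/L/Z. Among all genes tested by RNA the shares above it were 59.6%, 41.8% and 41.3%. For accessibility, these are called the shares of all genes below.

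Enzymes that make the building blocks of DNA were above 0 in 11, 10 and 13 of 14 cases against undiff. SpG, diff. SpG and eL/L/Z. Of these 14 genes for nucleotide supply 8 were highest in pL (14.8% of all genes), with median log2 differences of 0.44, 0.23 and 0.56 over these neighbours, where all genes had -0.02, 0.01 and -0.01. In accessibility 13 lay above the median gene over undiff. SpG (59.6% of all genes), 7 over diff. SpG (41.8%) and 5 over eL/L/Z (41.3%). Rrm2, the regulated subunit of ribonucleotide reductase, had 0.987 UMIs per 10000 in pL, against 0.213 in undiff. SpG, 0.716 in diff. SpG and 0.438 in eL/L/Z. Tyms, which makes thymidylate, had 0.843 against 0.479, 0.482 and 0.511. Cad, the first enzyme of pyrimidine synthesis, was 1 of the 4 genes below 0 against diff. SpG and the 1 that was 2-fold lower, at 0.491 against 1.12.

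**Figure D3:**
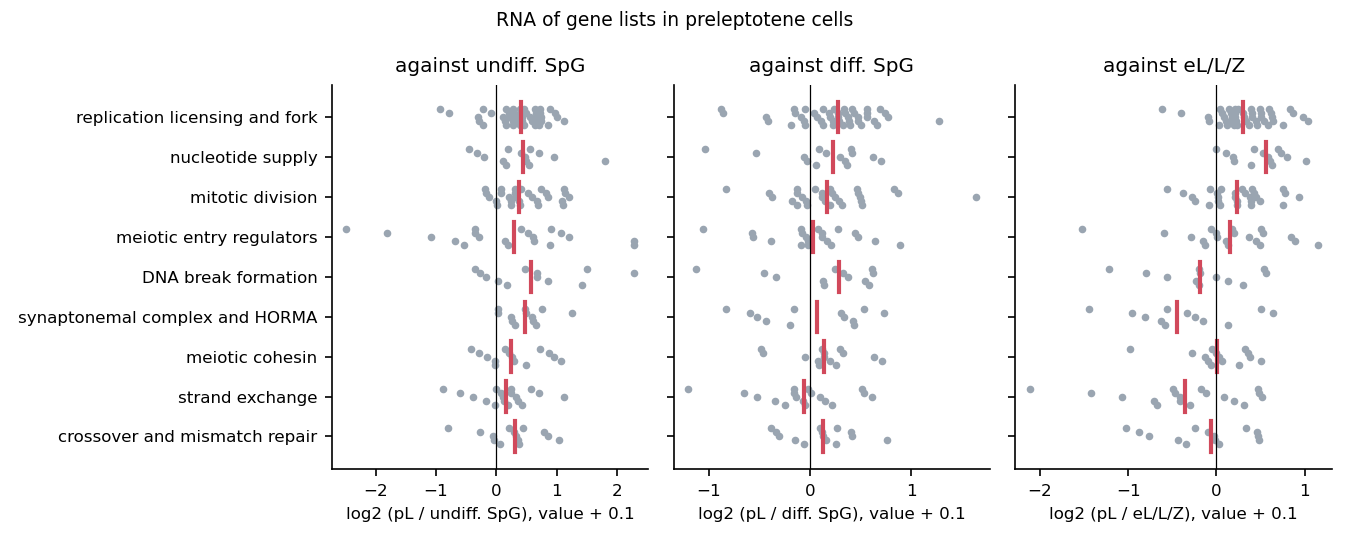
RNA log2 difference of pL over undiff. SpG, diff. SpG and eL/L/Z (x axes, value + 0.1) for the genes of 9 lists (rows). Grey points are genes and red lines list medians, and the replication median lies right of 0 in all 3 panels while the strand exchange median against eL/L/Z is -0.36.

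Cell cycle regulators differed in the population of their highest level. Ccnd1 (cyclin D1) had 4.39 UMIs per 10000 in pL against 1.48 in undiff. SpG, 2.62 in diff. SpG and 1.27 in eL/L/Z. Ccnd2 (cyclin D2) went the other way, with 10.8 in undiff. SpG and 1.24 in pL, a log2 difference of -3.03, and Ccnd3 with 2.52 and 0.649. The D-type cyclins thus had different peak populations in RNA. At Ccnd2 and Ccnd3 accessibility moved as RNA did, at -0.88 and -1.04 relative to the median gene over undiff. SpG, and at Ccnd1 it was 0.47. The S phase cyclin gene Ccne2 had 0.744 in pL against 0.159 in undiff. SpG, and the activating factor gene E2f2 0.668 against 0.0781. The inhibitor gene Cdkn1b (p27) had 0.247 in pL and 1.21 in undiff. SpG. Of 22 tested cyclins, kinases and inhibitors, 3 were 2-fold higher and 5 were 2-fold lower than in undiff. SpG, where 2.82% and 7.64% of all genes were. Against diff. SpG 0 were higher and 1 lower (1.42% and 12.1% of all genes), and against eL/L/Z 3 and 0 (0.693% and 5.17%).

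Genes of mitotic division were above 0 in 24 of 28 cases against undiff. SpG, 18 against diff. SpG and 22 against eL/L/Z. Of the 28 genes 12 were highest in pL (14.8% of all genes), and 5 were 2-fold higher than in undiff. SpG with none lower (2.82% and 7.64% of all genes). Against diff. SpG 1 was 2-fold higher (1.42%), and against eL/L/Z none was. In accessibility 21 lay above the median gene over undiff. SpG (59.6% of all genes), 5 over diff. SpG (41.8%) and 3 over eL/L/Z (41.3%). Top2a, the topoisomerase that untangles chromosomes, had 7.21 UMIs per 10000 in pL against 3.34 in undiff. SpG, 5.91 in diff. SpG and 6.10 in eL/L/Z. Kif23, a motor of cytokinesis, had 3.08 against 1.38, 1.65 and 2.34. Mki67, the proliferation antigen, was not highest in pL, at 4.24 against 1.79 in undiff. SpG, 5.52 in eL/L/Z and 5.99 in L/Z/eP. Cks2, a partner of cyclin-dependent kinases, had 1.11 in pL and 2.18 in L/Z/eP. In the windows of these genes CCAAT was present in 21 of 24 (87.5%), against 21 of 35 replication genes (60.0%) and 43.4% of the genes tested by RNA. Of genes highest in pL 44.5% held it, and of those leading by 1.5-fold or more 42.5%, both near that 43.4%. Over the lists counted, the share ran from 25.0% for the synaptonemal complex and HORMA list to the 87.5% given here.

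The E2F letters were rare over all genes and more frequent in replication genes. TTTCGCGC was found in 7 of 35 replication windows and TTTGGCGC in 6 of 35 (17.1%), as in the Mcm5 promoter printed above. Over the genes tested by RNA the shares were 0.660% for TTTCGCGC and 1.09% for TTTGGCGC. For TTTCGCGC the share was 1.59% over the 1703 genes highest in pL that have a window.

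Of 20 regulators of meiotic entry, 4 were 2-fold higher than in undiff. SpG and 3 lower, where 2.82% and 7.64% of all genes were. Against diff. SpG none was higher and 1 lower, which is near the 1.42% and 12.1% of all genes and no result about these regulators. Meioc, needed to leave the mitotic program, had 0.409 UMIs per 10000 in undiff. SpG, 2.24 in diff. SpG, 2.37 in pL and 2.09 in eL/L/Z. Dmrtb1, which ends spermatogonial gene expression, had 0.133, 1.04, 1.03 and 0.409. Ythdc2, the RNA helicase that works with MEIOC, had 0.425, 0.750, 0.882 and 0.798. Gm4969, the name the files use for Meiosin, was low throughout, at 0.0710, 0.235, 0.216 and 0.285, although its accessibility in pL was the highest of the 10 populations, also with nuclear genes scaled alone, and stood 0.63 above undiff. SpG relative to the median gene. Dazl, the germ cell RNA-binding protein, was highest in pL at 17.5 against 13.2, 12.8 and 12.3. Setdb2, a SET domain gene, had 1.01 against 0.428, 0.705 and 0.716. Etv5 and Sohlh1, transcription factor genes of SpG, were lower than in undiff. SpG, at log2 differences of -2.49 and -1.09.

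Pcgf6 stood apart among these regulators. It belongs to a Polycomb complex, PRC1.6, that keeps meiotic genes silent, and it had 0.137 UMIs per 10000 in pL, the lowest of the 10 populations, against 0.736 in undiff. SpG, 0.392 in diff. SpG, 0.583 in eL/L/Z and 1.70 in mP/lP. Its log2 differences were -1.82, -1.05 and -1.53, while accessibility relative to the median gene was 0.07, -0.03 and 0.17. Mga, Max and E2f6, other members of the complex, were not at their lowest in pL. Mga had 3.63 in pL and 3.99 in eL/L/Z, Max 0.527 and 0.530, and E2f6 0.589 and 0.391.

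Of 12 tested genes of the retinoic acid pathway, 1 was 2-fold higher than in undiff. SpG (2.82% of all genes), 2 than in diff. SpG (1.42%) and 1 than in eL/L/Z (0.693%), and none was 2-fold lower. Crabp1, a retinoic acid binding protein, had 1.57 UMIs per 10000 in pL against 0.794, 1.43 and 0.675. Cyp26b1, which breaks retinoic acid down, had 0.232 against 0.0604, 0.0713 and 0.132. Stra6 and Aldh1a1, which were 2-fold higher than in diff. SpG, were highest in Sertoli cells at 2.91 and 9.91, against 0.218 and 1.05 in pL. Rarg, a receptor, had 0.508 in pL and 0.730 in undiff. SpG.

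Genes for cutting DNA and for pairing chromosomes were divided. All 12 tested genes of the synaptonemal complex and HORMA list were above 0 against undiff. SpG (median log2 0.48). Against diff. SpG 6 were above 0 (median 0.07), and against eL/L/Z 9 of 12 were below 0 (median -0.44). In accessibility 6 of 13 lay above the median gene over undiff. SpG, 5 over diff. SpG and 3 over eL/L/Z. The shares of all genes were 59.6%, 41.8% and 41.3%. Sycp2, of the lateral element, had 3.25 UMIs per 10000 in undiff. SpG, 3.85 in pL, 10.7 in eL/L/Z and 20.2 in L/Z/eP. Sycp3 had 0.673, 1.20, 2.42 and 2.81, and Hormad1, an axis protein, 0.493, 1.31, 2.02 and 3.56. Trip13, the enzyme that remodels HORMA proteins, was highest in pL at 1.31 against 0.807 in eL/L/Z. Of 14 cohesin genes 9 were above 0 against undiff. SpG, 11 against diff. SpG and 7 against eL/L/Z. Only 1 was 2-fold apart, higher than in undiff. SpG (2.82% of all genes). Among them Smc1b had 3.38, 7.17, 7.83 and 8.06, and Stag1 was highest in pL at 7.54 against 4.06 in undiff. SpG and 6.29 in eL/L/Z. The cohesin loader gene Nipbl was lowest of the 10 populations in pL, at 3.01 against 6.04 in eL/L/Z.

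Of 12 genes for DNA break formation 9 were above 0 against undiff. SpG, 3 of them by 2-fold (2.82% of all genes), and Spo11, Ankrd31 and Cxxc1 were below 0. Against eL/L/Z 8 of the 12 were below 0, with a median of -0.19. Mei1 had 1.18 UMIs per 10000 in pL against 0.352 in undiff. SpG and 1.19 in eL/L/Z, and Ccdc36 (IHO1) 0.813 against 0.244 and 0.733. Mei4 and Rec114 were highest in pL at 0.917 and 0.392. Spo11, which makes the cut, had 0.0993 in pL, 0.156 in undiff. SpG, 0.363 in eL/L/Z and 0.999 in mP/lP, and was at least 2-fold lower than in diff. SpG and eL/L/Z. Hells, a chromatin remodeller that works with PRDM9, was highest in pL at 7.06 against 3.86, 4.60 and 4.74.

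Strand exchange genes were below 0 against eL/L/Z in 12 of 18 cases. Dmc1, the meiotic strand exchange recombinase, had 0.766 UMIs per 10000 in undiff. SpG, 1.20 in diff. SpG, 1.79 in pL and 2.22 in eL/L/Z. Meiob, a meiotic single-strand binding protein, had 0.154 in undiff. SpG, 0.418 in diff. SpG, 0.125 in pL, 0.871 in eL/L/Z and 1.59 in L/Z/eP. Its log2 difference of -2.11 to eL/L/Z was the largest of the 18 genes, and accessibility relative to the median gene was -0.67. Rad51ap2 had 0.132 in pL and 0.522 in eL/L/Z (accessibility -0.60), and Mcmdc2 0.104 and 0.330 (-0.13). In all, 3 of 18 strand exchange genes were 2-fold lower than in eL/L/Z (5.17% of all genes) and none higher. In accessibility 6 of these 18 genes lay above the median gene over eL/L/Z (41.3% of all genes). The list median was -0.06 relative to that gene. Of 14 crossover and mismatch repair genes 10 were above 0 against undiff. SpG, 1 of them by 2-fold (2.82% of all genes). Against diff. SpG 9 were above 0, and against eL/L/Z 5. Hfm1, a helicase, was the 1 that was 2-fold lower than in eL/L/Z, at 0.718 against 1.57. The X-linked Tex11 was highest in pL at 2.07.

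**Figure D4:**
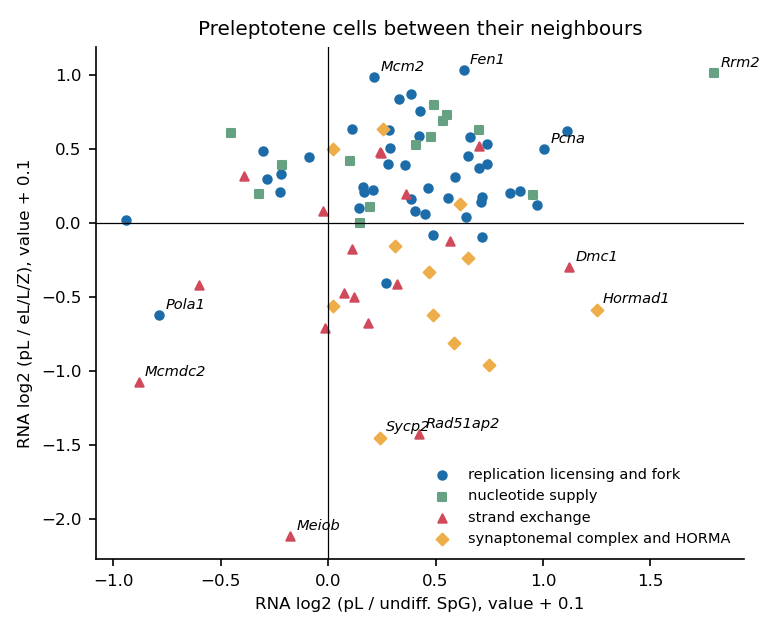
RNA log2 difference of pL over undiff. SpG (x axis) and over eL/L/Z (y axis), each of value + 0.1, for the genes of 4 lists. Most replication and nucleotide genes lie above 0 on both axes, while most strand exchange and synaptonemal genes lie below 0 on the y axis, with Meiob lowest at -2.11.

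Of 9 genes for DNA methylation and its removal 5 were highest in pL (14.8% of all genes). Dnmt1, the maintenance methyltransferase, had 5.17 UMIs per 10000 in pL against 3.29, 3.22 and 2.46, and led the next population by 1.55-fold. Its partner Uhrf1 had 1.79 against 1.35, 1.18 and 0.978, and Dnmt3b 1.60 against 1.28, 1.13 and 0.687. All 8 tested genes of this list were above 0 against undiff. SpG and against diff. SpG.

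The subunits of NF-Y, the factor removed in the mutant, were present in pL. Nfya had 0.414 UMIs per 10000 against 0.456 in undiff. SpG, 0.667 in diff. SpG and 0.375 in eL/L/Z. Nfyb had 0.838 against 0.639, 0.936 and 0.442, and Nfyc 1.73 against 1.17, 1.31 and 1.40. None differed 2-fold from a neighbour.

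Against undiff. SpG, 369 genes (2.82%) were at least 2-fold higher in pL and 998 (7.64%) lower. The largest increases were Zfp286os (log2 3.62), Esx1 (3.30), the protease gene Prss50 (2.61), the RNA-binding protein gene Elavl3 (2.34) and Meioc (2.28). The largest decreases were the transcription factor gene Glis3 (-4.59), the potassium channel gene Kcnc2 (-4.55), Foxf1 (-4.36), the GDNF receptor Ret (-3.90) and Egr4 (-3.68). Ret had 2.30 UMIs per 10000 in undiff. SpG, 0.0607 in pL and 0.119 in diff. SpG, so that it was already low in diff. SpG. Accessibility at Ret was -1.03 relative to the median gene, at Glis3 -1.04, at Foxf1 -1.01 and at Kcnc2 -1.57. Of 14 tested markers of undiff. SpG, 9 were 2-fold lower in pL and none higher. Zbtb16 (PLZF) had 8.74 and 1.14, while Uchl1 kept 3.46 of 5.88 and the X-linked Sox3 3.31 of 6.17. In accessibility, 383 of 18243 genes (2.1%) were 1.5-fold higher and 2585 (14.2%) lower relative to the median gene. With nuclear genes scaled alone 440 (2.21%) were higher and 3525 (17.7%) lower, and without correction 1417 (7.77%) and 1584 (8.68%).

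Against diff. SpG, 195 genes (1.42%) were at least 2-fold higher in pL and 1662 (12.1%) lower. The largest decreases were Nkain2 (log2 -5.69), Prm1 (-5.26), Tnp2 (-4.96), Asxl3 (-4.80) and the adhesion gene Chl1 (-4.78). Prm1 and Tnp2, which package sperm DNA, had 3.94 and 3.21 UMIs per 10000 in diff. SpG, 0.00525 and 0.00659 in pL and 40.8 and 49.3 in elongating spermatids. All 10 markers of spermatids summed to 14.9 in diff. SpG, 0.488 in pL, 1.46 in undiff. SpG, 50.9 in RS and 139 in ES, and Prm2 was listed at 0 in pL. Of the 10 markers, 9 were 2-fold lower in pL than in diff. SpG. Leaving out genes above 1 UMI per 10000 in spermatids left 546 lower genes of 10182 tested, in place of 1662 of 13694. It left 147 higher genes in place of 195. This alternative was added after seeing the data. The part of spermatid RNA in the lower genes was not tested beyond this. Among the largest increases were Ptma (3.32), Gm10282 (2.71), Nutf2-ps1 (2.57) and Eef1a1 (2.08), all members of families with near-identical copies. Eef1a1 serves protein synthesis, and of 83 ribosomal protein genes, a list added after its values were seen, 12 were 2-fold higher than in diff. SpG. In accessibility, 608 of 18039 genes (3.37%) were 1.5-fold higher and 565 (3.13%) lower relative to the median gene. With nuclear genes scaled alone 1033 (5.16%) were higher and 964 (4.82%) lower, and without correction 1352 (7.49%) and 417 (2.31%).

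Against eL/L/Z, 90 genes (0.693%) were at least 2-fold higher in pL and 672 (5.17%) lower. All 5 of the largest increases were genes of the protocadherin gamma cluster, led by Pcdhga8 (log2 2.16), and all 21 tested genes of the cluster were called. These genes share exons, so they count as 1 locus and not as 21 results, and the locus was lower in pL than in undiff. SpG (median -0.63) and diff. SpG (-2.56). The largest decreases were Ldhc, the lactate dehydrogenase of meiotic and later germ cells (log2 -3.16, 0.113 UMIs per 10000 in pL and 1.80 in eL/L/Z), and 4 pachytene piRNA precursor loci that the files name by chromosome band. Of 86 tested loci with such names 70 were 2-fold lower in pL than in eL/L/Z and none higher, with a median of -1.83. Against undiff. SpG 21 of 69 were lower and 1 higher. The loci were also lower than in diff. SpG, 74 of 90 by 2-fold (12.1% of all genes) and none higher, with a median of -1.94. This list was added after seeing the values. Piwil1, which binds the piRNAs made from them, had 0.282 in pL and 1.64 in eL/L/Z. Ldhc had 3.44 in diff. SpG, more than in eL/L/Z. The 10 markers of pachytene and later spermatocytes summed to 10.6 in diff. SpG, 2.63 in pL and 7.91 in eL/L/Z. In accessibility, 257 of 17419 genes (1.48%) were 1.5-fold higher and 118 (0.677%) lower relative to the median gene. With nuclear genes scaled alone 519 (2.67%) were higher and 213 (1.09%) lower, and without correction 3621 (20.8%) and 22 (0.126%). Of 52 piRNA loci tested in accessibility, 26 were above 0 and 10 above the median gene.

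Markers of somatic testis cells were at most weakly present in pL, while those of diff. SpG were not weak there. The 8 markers of diff. SpG summed to 14.8 UMIs per 10000 in pL, 11.1 in diff. SpG and 15.0 in undiff. SpG. Of these 8 markers 4 were highest in pL, and 6 were above 0 and 2 below 0 against diff. SpG. The 12 Sertoli cell markers summed to 11.7 UMIs per 10000 in pL, against 7.81 in undiff. SpG, 6.28 in diff. SpG, 24.1 in eL/L/Z and 128 in Sertoli cells. Against undiff. SpG all 10 tested Sertoli markers were above 0, with a median log2 difference of 0.47, and against diff. SpG the median was 0.97. Of 10 tested Sertoli markers 5 were 2-fold higher than in diff. SpG (1.42% of all genes), and all 12 were below 0 against eL/L/Z, 2 of them by 2-fold (5.17%). In accessibility 2 of 10 tested Sertoli markers lay above the median gene over undiff. SpG, 10 over diff. SpG and 7 over eL/L/Z. The shares of all genes were 59.6%, 41.8% and 41.3%. The 6 Leydig cell markers summed to 0.219 in pL, the 8 peritubular and endothelial markers to 0.229 and the 8 macrophage markers to 0.132, and no marker of these lists was at 0. Their part in the differences above was not tested.

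By scATAC-seq, pL cells were placed in several populations. The scATAC-seq clusters have no pL population, and the authors' scATAC-seq name put 806 of 1721 pL cells (46.8%, 44.5 to 49.2%) in eL/L/Z, 634 (36.8%, 34.6 to 39.2%) in undiff. SpG, 206 in L/Z/eP, 64 (3.72%) in Sertoli cells, 10 in mP/lP and 1 in other somatic cells. In the 11 dpp library eL/L/Z took 44.0% and undiff. SpG 39.5%, and in the 17 dpp library 49.5% and 34.3%. At 25 dpp 29 of 35 cells were eL/L/Z and none was undiff. SpG, and in Cre/+ 4 of 6 cells were undiff. SpG. Together, spermatocyte or spermatid names went to 59.4% of pL cells, compared with 21.5% of undiff. SpG, 79.5% of diff. SpG and 82.5% of eL/L/Z cells. Such a spread was not particular to pL, since eL/L/Z cells went to eL/L/Z in 39.6% and to L/Z/eP in 38.1% of cases, and diff. SpG cells to eL/L/Z in 51.1% and to undiff. SpG in 19.1%. Cells of undiff. SpG kept that name in 74.6%.

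These pL cells also differed in quality measures. Those placed in undiff. SpG had a median of 36196 fragments, 9794.5 UMIs and a TSS enrichment (coverage at transcription start sites over flanking windows) of 11.3, and those placed in eL/L/Z 20269 fragments, 7401 UMIs and 16.2. The share of reads in promoters was 18.5% and 26.2%. pL cells placed in L/Z/eP had 19689 fragments, 5711 UMIs and a TSS enrichment of 18.4. Without the cells whose scRNA-seq barcode occurs in more than 1 library, undiff. SpG took 31.6% and eL/L/Z 51.2%. The parts of depth, of doublets and of shared barcodes in this split were not tested. Doublets had been removed by the authors, and the doublet enrichment score of the remaining pL cells had a median of 0.0901, against 0.0877 in undiff. SpG and 0.0736 in eL/L/Z.

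**Figure D5:**
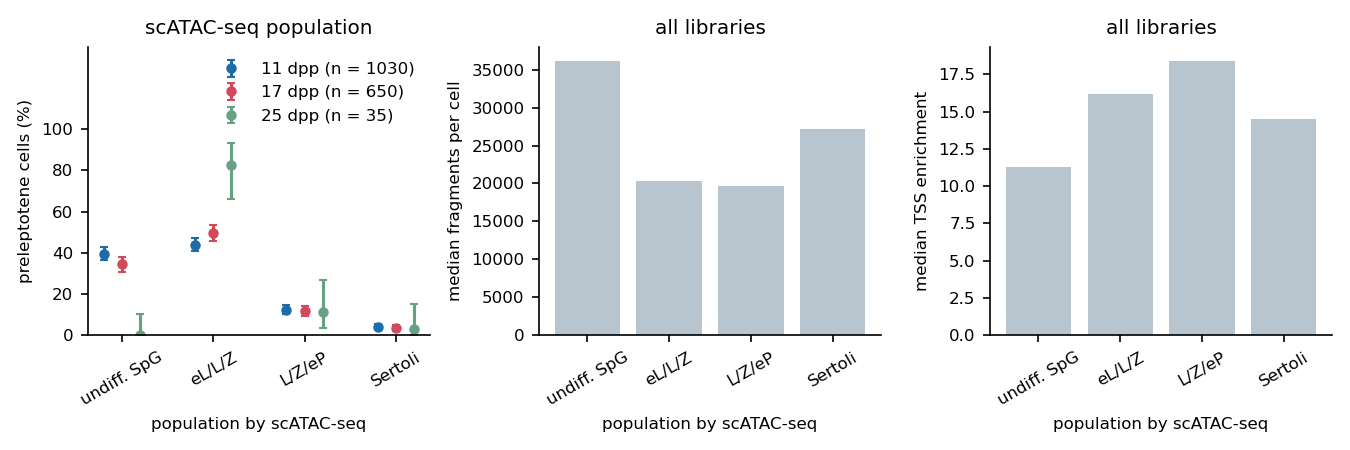
Left, percent of pL cells (y axis) that scATAC-seq placed in each population (x axis), for the 11, 17 and 25 dpp libraries with exact 95% binomial intervals. Middle and right, median fragments and median TSS enrichment of pL cells by that population over all libraries, where cells placed in undiff. SpG have 36196 fragments and a TSS enrichment of 11.3.

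By RNA, X-linked genes were more often highest in pL than autosomal genes. Of 479 X-linked genes, a list added after seeing the values, 97 were highest in pL (20.3%), against 14.9% of autosomal genes and 10.7 to 17.9% over single autosomes. Of the same genes 82 were highest in undiff. SpG (15.1% of all genes), 19 in diff. SpG (5.24%) and 17 in eL/L/Z (3.10%). In accessibility 191 of 487 X-linked genes lay above the median gene over undiff. SpG, 240 of 452 over diff. SpG and 132 of 454 over eL/L/Z. The 479 X-linked genes tested by RNA made up 2.38% of UMIs in pL, 2.14% in undiff. SpG, 1.89% in diff. SpG and 2.12% in eL/L/Z. The share was 1.39% in L/Z/eP spermatocytes and 0.503% at mP/lP. Among the germ cell populations the share was highest in pL, and only Sertoli cells, at 3.21%, had more.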

How the data were processed

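Nuclei were profiled with BD Rhapsody, with 1 scRNA-seq and 1 scATAC-seq library per condition. Per the study's methods the authors aligned reads to mm10 (STAR 2.7.10b, BWA 0.7.12, bedtools 2.27.1), kept cells with at least 500 genes and under 5% mitochondrial UMIs (Seurat 5.2.1) or at least 1000 fragments and a TSS score of 4 (ArchR 1.0.3), and removed doublets with DoubletFinder (scRNA-seq) and ArchR (scATAC-seq). The deposited matrices hold the natural log of 1 plus a mean per cell population, pooled over libraries by the authors. The deposited cell tables hold counts (UMIs, genes, fragments), the percent of mitochondrial UMIs, the TSS enrichment ratio, the fraction of reads in promoters and doublet scores, all as computed by the authors with Seurat and ArchR.

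Values were transformed with exp(value) - 1. RNA then sums to 10000 per population, and accessibility was rescaled to 1000000. RNA log2 differences used value + 0.1, a pair mean of at least 0.05 and a 2-fold threshold. Accessibility used value + 1, a mean of at least 5 and 1.5-fold. Every difference is therefore understated for low genes. Calls are by size alone, with no test. Named genes are the 10 with the greatest lead over the next population and the 5 highest and 5 lowest against each neighbour, with a mean of at least 0.2, beside members of 21 lists. Lists said to be added were chosen after their values were seen. All members and lists were chosen with earlier results of these data known. List symbols were matched to the files through RefSeq synonyms. Cell shares carry exact Clopper-Pearson 95% intervals, and a share of 0 also the limit that 3 cells allow. Library totals ran from 30227701 to 64967271 UMIs. Scripts were tested on simulated data and run with Python 3.11.15, numpy 2.4.6, pandas 2.3.3, scipy 1.17.1 and matplotlib 3.10.9. Alternatives varied the pseudocount, minimum, scaling and cell limits. The 49 scRNA-seq cells without a library name were left out of the shares per library, and none of them was pL. Some genes that the rules name are not reported here.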

Additional observations from a re-analysis of the deposited data

How the results depend on the processing

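For the 12 RNA lists recomputed, medians with an interval, taken from the ranked members, that excluded 0 kept their sign. This held under the pseudocounts and the minimum tried. Medians with an interval that spans 0 were not checked for sign. The balance of accessibility calls made without correction did turn, as given below. It went from more lower to more higher genes against undiff. SpG with a pseudocount of 5. Against diff. SpG it went the other way with no minimum. No paired analysis was possible because each condition has 1 library and no replicate. Differences between populations cannot be recomputed per library or without shared barcodes, since the matrices are pooled. At 25 dpp and in the adult libraries the shares rest on 38, 6 and 0 pL cells. The cause of each shift below was not tested. The alternatives on shared barcodes, single libraries, spermatid genes and the protocadherin cluster were chosen after seeing the data.

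The pL share moved with the cell limits. With at least 1000 genes per cell it was 19.8% at 11 dpp, 26.0% at 17 dpp and 0.313% at 25 dpp, and with under 2% mitochondrial UMIs 17.9% and 19.5% in the first 2. In Cre/+ it was 0.0743% with at least 1000 genes and 0.0458% with under 2% mitochondrial UMIs. With the deepest cell of each barcode alone it was 20.3% at 17 dpp. Of named scATAC-seq cells with a TSS enrichment of at least 8 it was 17.5% at 11 dpp and 0.140% in Cre/+. Placement in eL/L/Z was 51.2% without shared barcodes, 44.0% at 11 dpp and 49.5% at 17 dpp, and in undiff. SpG 31.6%, 39.5% and 34.3%.

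Counts of genes depended on the pseudocount. Against undiff. SpG, 758 genes were higher and 1978 lower in RNA with 0.01, 18 and 80 with 1, and 653 were lower with a minimum mean of 0.2. Against diff. SpG, 491 were higher with 0.01, 22 higher and 118 lower with 1, 799 lower with the minimum of 0.2 and 546 lower without genes high in spermatids. Against eL/L/Z, 246 were higher and 1479 lower with 0.01, 4 and 35 with 1, and 413 lower with the minimum of 0.2. With a pseudocount of 1, 6 genes were 1.5-fold above every other population, and the list medians were 0.22 for replication and 0.18 for mitotic division against undiff. SpG, and 0.15 for replication against eL/L/Z.

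Accessibility counts depended on the scaling, and the pseudocount and the minimum were varied on the uncorrected signal alone. Against undiff. SpG, 832 genes were higher and 774 lower with a pseudocount of 5, 440 and 3525 with nuclear genes alone, 383 and 2585 relative to the median gene, and 2153 and 2575 with no minimum. Against diff. SpG, 436 were higher and 211 lower with a pseudocount of 5, 964 lower with nuclear genes alone, 608 higher relative to the median gene, and 1692 higher and 3087 lower with no minimum. Against eL/L/Z, 1740 were higher and 13 lower with a pseudocount of 5, 519 and 213 with nuclear genes alone, 257 and 118 relative to the median gene, and 184 lower with no minimum.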

Other observations

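Genes for ribosomal proteins are a list added after its values were seen. In RNA most were lower in preleptotene spermatocytes than in undifferentiated spermatogonia, unlike the replication genes. Against differentiating spermatogonia and eL/L/Z most were above 0, as were most replication genes. Of 83 tested genes 18 were above 0 against undifferentiated spermatogonia (median log2 -0.26), 67 against differentiating spermatogonia (0.56) and 72 against eL/L/Z (0.35). In accessibility 77 of 84 lay above the median gene against undifferentiated spermatogonia, 32 against differentiating spermatogonia and 30 against eL/L/Z. Of all genes tested by RNA, 59.6%, 41.8% and 41.3% lay above it. Many of these genes have near-identical pseudogene copies, so their counts are uncertain.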
